A study of Mus musculus with 7 samples.

Results

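The clustered protocadherin locus of the mouse was described here by every deposited CTCF and CTCFL peak that touches chromosome 18 from position 37080000 to 38010000 (mm9), an interval set by position and not by any measured value. It holds 77 of the 100560 peaks in the 4 lists, of which 35 are CTCF peaks of 3T3 cells, 40 are CTCF peaks of P19 cells, and 1 each is a CTCFL peak of 3T3 and of P19. CTCF was denser over the locus than over the genome in both lines, but in 3T3 it was sparser than in either flank of equal length. CTCFL had 1 peak there in each line, which in P19 is also the median of genome windows of that length. None of the 35 3T3 CTCF peaks overlapped a CTCFL peak of the same line, against 21.2% of the whole 3T3 CTCF list. For P19 it was 1 of the 40 CTCF peaks, against 12.3% of the whole list.

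Clustered protocadherins are cell adhesion proteins that give single neurons different surface identities. Their genes stand in tandem as alpha, beta and gamma families, and most variable exons of the alpha and gamma families have a promoter of their own and are spliced to exons shared by the family. CTCF binds a conserved element at many of these promoters and at distal enhancers, and loops between them are known to take part in promoter choice. CTCFL, also called BORIS, is a paralogue of CTCF with a similar zinc-finger domain and different ends, and is normally made in the male germ line. In a RefSeq gene table of another build (GRCm38.p6) the families follow each other without mixing, with 14 alpha genes from Pcdha1 to Pcdhac2, then 22 beta genes from Pcdhb1 to Pcdhb22, then 22 gamma genes from Pcdhga1 to Pcdhgc5. The positions of that table differ in build from the peaks, so peaks are not tied to genes here and places are given as distances from the start of the interval.

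Chromatin was immunoprecipitated with antibody N2.2 against CTCF or S6 against CTCFL and sequenced. The 3T3 samples used here are NIH3T3 fibroblasts that carry pBI-EGFP-FLAG-mCtcfl, named for FLAG-tagged mouse Ctcfl, together with pTA-N as stable integrates. P19 samples are embryonal carcinoma cells whose labels list the same constructs although their titles call them controls, so whether Ctcfl was induced in them is not settled by the labels. The labels give all of them 2 μg/ml doxycycline in the medium and 48 h without it for induction. The other 3 of the 7 samples, namely NIH3T3 cells lacking both constructs with either antibody and the input DNA of P19, were not analysed here, so neither CTCFL list was set against cells that lack them. With 1 library per group, differences carry no replicate error and are described without p-values. Peak positions carry no expression values, so the identity of the cells and the level of CTCFL were not checked.

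CTCFL peaks were fewer at the locus than in either flank in both lines, and in 3T3 also fewer than in the median genome window of that length, which held 3. The median P19 window held 1, the same as the locus. The single 3T3 CTCFL peak amounts to 1.08 peaks per Mb, against 6.36 per Mb over the genome, and the flanks of equal length held 23 peaks upstream and 17 downstream. P19 likewise had 1 CTCFL peak in the locus, also 1.08 per Mb against 2.22 per Mb over the genome, with 12 peaks in the upstream flank and 5 in the downstream flank. CTCF was denser here than over the genome in both lines, but denser than in the flanks in P19 only. The 35 3T3 CTCF peaks gave 37.6 per Mb, 2.17 times the genome-wide 17.3 per Mb, beside 39 and 50 peaks in the flanks. In P19 the 40 CTCF peaks gave 43.0 per Mb, 3.51 times the genome-wide 12.2 per Mb, and each flank held 26.

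**Figure D1:**
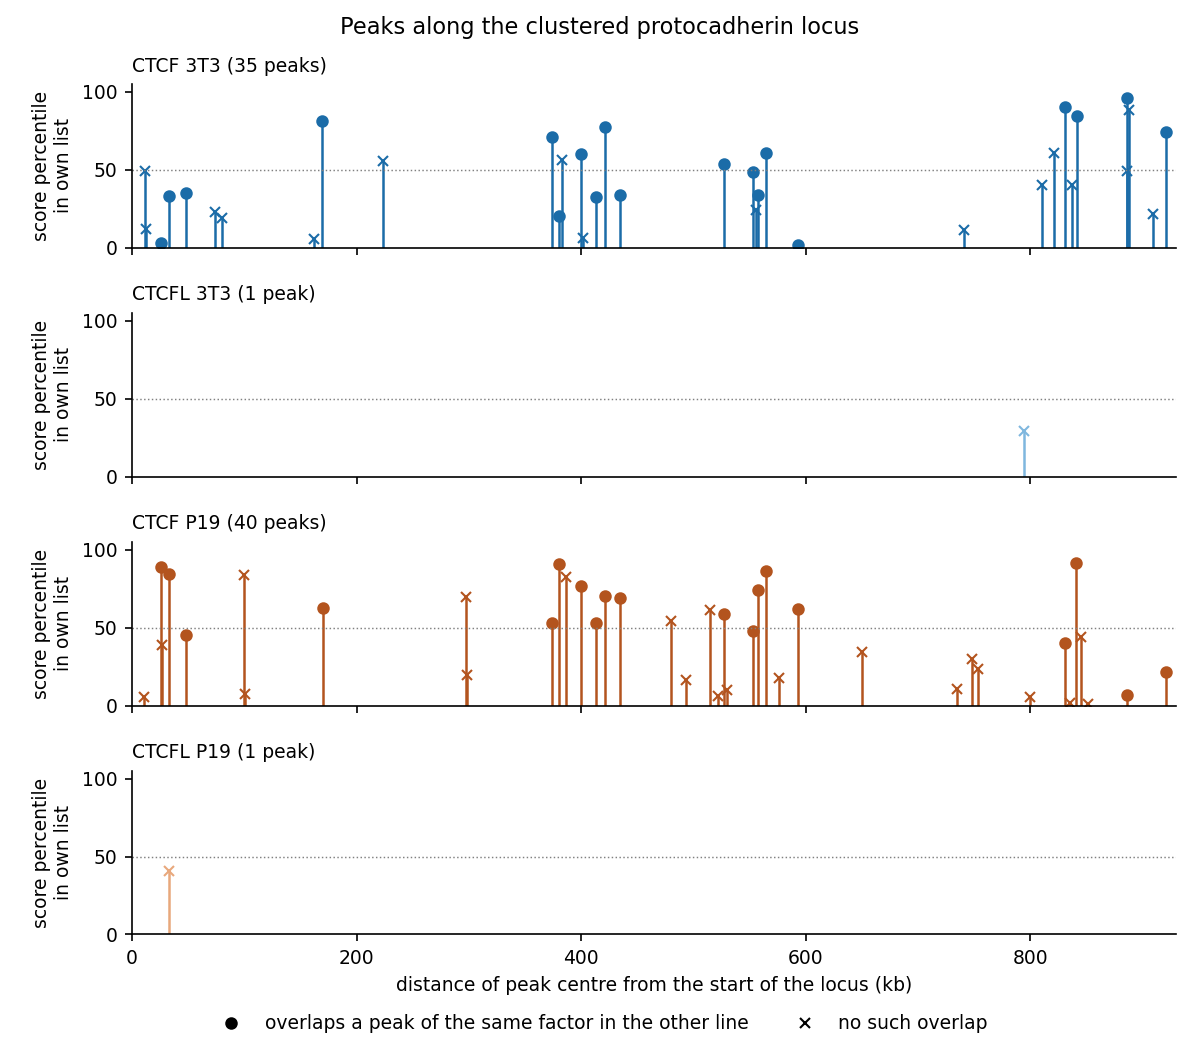
All 77 peaks along the locus, 1 panel per list, by the distance of the peak centre from the start of the locus in kb (horizontal) and by the percentile of the peak's score within its own list (vertical, dotted line at 50). Filled circles are peaks that overlap a peak of the same factor in the other line, and crosses are peaks that do not; the CTCF panels hold 35 and 40 peaks and each CTCFL panel 1.

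The share of CTCF peaks with CTCFL was below the share over each whole list. In 3T3 it was 0 of 35 (0%, exact 95% interval up to 10.0; a count of 0 allows up to 8.57%), while 21.2% of all 45653 3T3 CTCF peaks overlapped CTCFL. For P19 it was 1 of 40 (2.50%, interval 0.0633 to 13.2), beside 12.3% of all 32277 P19 CTCF peaks. The P19 interval includes the list's share, and the 3T3 interval does not. These intervals cover counting error alone, since neighbouring peaks are not independent. Flanking CTCF peaks had CTCFL in 26 of 89 cases in 3T3 (29.2%, 20.1 to 39.8) and in 9 of 52 in P19 (17.3%, 8.23 to 30.3).

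CTCF peaks with low scores overlap CTCFL less often in these lists. The median score percentile of locus CTCF peaks was 40.0 in 3T3 and 46.5 in P19, both with intervals that include 50. Each locus peak was therefore given the CTCFL share of its own score group, out of 10 groups of nearly equal size over the list. In 3T3 these shares add up to 6.38 peaks with CTCFL among the 35 (18.2%), against 0 measured. For P19 they add up to 4.40 among the 40 (11.0%), against 1 measured.

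**Figure D2:**
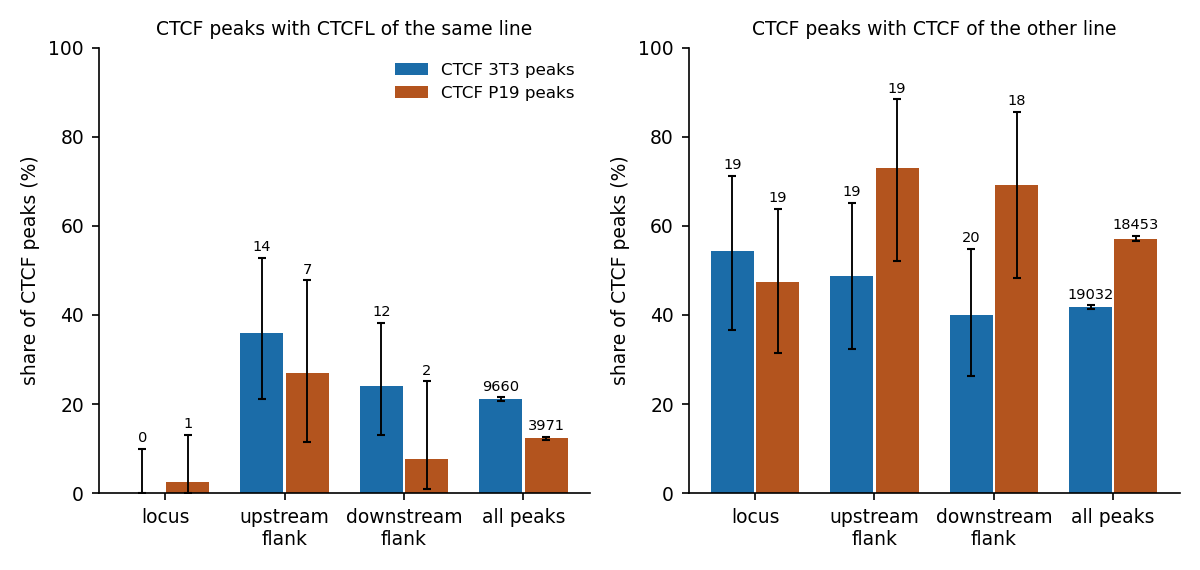
Share of CTCF peaks in percent (vertical) that overlap a CTCFL peak of the same line (left) or a CTCF peak of the other line (right), for the locus, its flanks of equal length and all peaks of the list. Bars are 3T3 (blue) and P19 (orange), lines are exact 95% intervals and the numbers on top count the overlapping peaks; the locus stands at 0 and 1 peak on the left and at 19 and 19 on the right.

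The genome was also tiled into 2824 windows of the length of the locus, a comparison chosen after the counts were known. At least 35 3T3 CTCF peaks were found in 382 windows (13.5%), and none of these had as few as 1 CTCFL peak. Their CTCFL count had a median of 20 and a lowest value of 3, or of 5 among windows that do not touch the locus. In P19, 75 windows (2.66%) held at least 40 CTCF peaks, none with as few as 1 CTCFL peak, with a median of 13 and a lowest value of 2, or of 3 outside the locus. Windows shifted by 0.5 of their length also gave 0 such windows in each line. Over all windows the median was 9 CTCF and 3 CTCFL peaks in 3T3, and 8 and 1 in P19, so a CTCFL count of 1 was ordinary for a P19 window and a CTCF count of 40 was not.

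**Figure D3:**
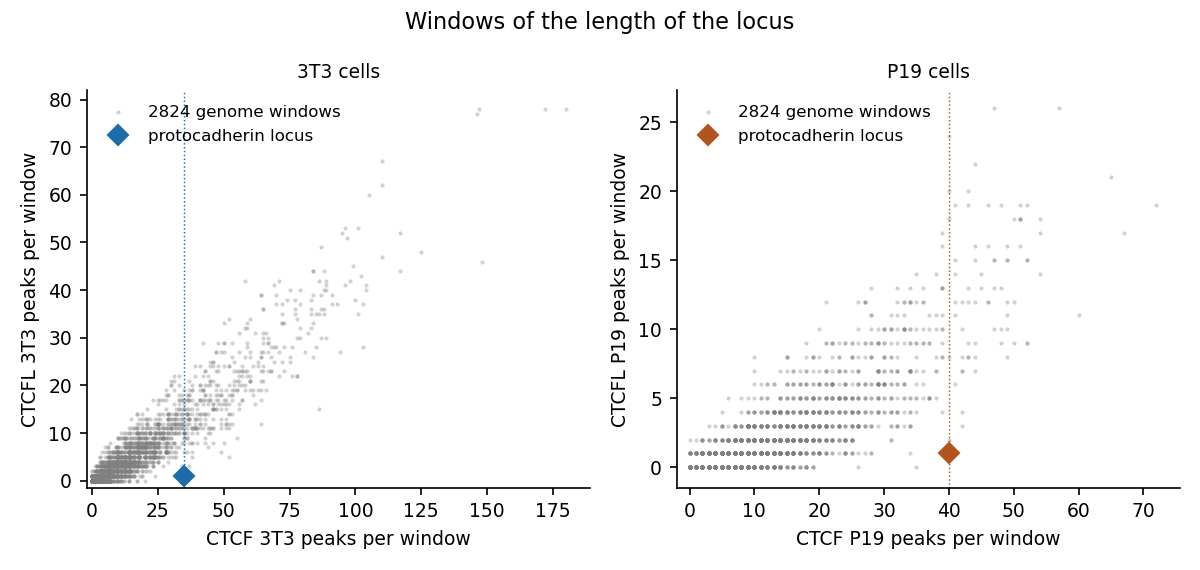
CTCFL peaks (vertical) against CTCF peaks (horizontal) in each of 2824 genome windows of the length of the locus (grey points), for 3T3 (left) and P19 (right). The diamond is the locus, at 35 and 1 in 3T3 and at 40 and 1 in P19, and the dotted line marks its CTCF count; no window on or to the right of the line had 1 CTCFL peak or fewer.

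Consecutive CTCF peaks were next counted up to the first one that overlaps CTCFL. Long runs over the locus were already given by the 0 of 35 in 3T3 and the 1 of 40 in P19. Their length is thus not a separate result. The locus lies inside a run of 44 consecutive 3T3 CTCF peaks without CTCFL, from 36899494 to 38067990 (1168 kb). Of 7212 such runs in the list, 2 were as long or longer, this one included, and the median run was 3 peaks. This run counts overlap and is not free of CTCFL, since the 3T3 CTCFL peaks at 36961148 to 36961732 and at 37874406 to 37874634 lie inside it without touching a 3T3 CTCF peak. The P19 list had a run of 39 from 37127547 to 38040351 (913 kb), and 61 of its 3350 runs (1.82%) were as long or longer, with a median of 5. A second P19 run reached into the start of the locus, from 36949567 to 37106701. It held 5 peaks, and 55.5% of runs were as long or longer. Between 36961732 and 37874406 there was no 3T3 CTCFL peak at all, a stretch of 913 kb that holds 25 CTCF peaks, against a median stretch of 32.7 kb, and 557 of 16743 stretches (3.33%) were longer. In P19 the empty stretch ran from 37113046 to 38043082, 930 kb with 39 CTCF peaks, against a median of 118 kb, and 651 of 5846 (11.1%) were longer. On the other side of each CTCFL peak the stretch was shorter. It was 220 kb in 3T3 (13.5% longer) and 151 kb in P19 (44.9% longer). These shares count stretches and not the length of genome they cover. A given place falls in a long stretch more often than in a short one. The shares therefore do not say how rare such a stretch is at a locus.

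Both CTCFL peaks scored below the median of their own list and lay toward opposite ends of the locus. The deposited score is the authors' own, read here as a multiple of the negative log10 p of their peak caller. Its size moves with sequencing depth and the control used, so a peak is placed by its percentile within its own list, the share of that list with a lower score with ties counted by 0.5. The 3T3 CTCFL peak, chromosome 18 37874406 to 37874634 (229 bp, 795 kb from the start), scored 65.9, percentile 29.3. It had no CTCF partner, since the nearest 3T3 CTCF peak was 15.9 kb away and the nearest P19 CTCF peak 5192 bp away. In P19 the CTCFL peak lay at 37112656 to 37113046 (391 bp, 32.9 kb from the start), with a score of 68.6, percentile 41.1. It sat on CTCF peaks of both lines, and its centre was 152 bp from that of the P19 CTCF peak at 37112676 to 37113330 (score 244, percentile 84.6). The 3T3 CTCF peak of that region had a score of 77.5, percentile 32.8. This was the single region of the locus with peaks in 3 lists, and none had all 4. Regions with CTCF of both lines and CTCFL of P19 only made up 1.75% of the regions here, close to the 2.61% over the genome. Regions with all 4 lists are 2.06% of the genome's, within the interval of the 0 found here (up to 6.27%).

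Merging peaks that overlap by at least 1 bp gave 57 regions. CTCF of both lines met in 19, 33.3% of the regions (21.4 to 47.1) against 28.0% of all 65700 regions of the genome, which the interval includes. In 18 of these there was CTCF alone, 31.6% (19.9 to 45.2) against 21.3%. That class, like the classes with CTCF of a single line alone, leaves out regions with CTCFL, which are fewer here. A larger part of the total is thus left to these classes together. CTCF of P19 alone made up 21 regions, 36.8% (24.4 to 50.7) against 19.6%, and CTCF of 3T3 alone 16, 28.1% (17.0 to 41.5) against 29.5%. Any CTCFL peak was present in 2 regions, 3.51% (0.428 to 12.1), against 29.6% over the genome. CTCF with CTCFL in 3T3 and no P19 peak, which covers 9.11% of all regions, had no region here (interval up to 6.27%).

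CTCF sites met in both lines at 19 regions. Of the 3T3 CTCF peaks, 19 of 35 overlapped a P19 CTCF peak (54.3%, 36.6 to 71.2), and 41.7% of all 3T3 CTCF peaks did. Seen from P19 it was 19 of 40 (47.5%, 31.5 to 63.9), beside 57.2% of the whole list. Both intervals include the list's share. By the score groups used above, the shared peaks would add up to 13.1 in 3T3 (37.5%) and to 21.7 in P19 (54.2%), against 19 measured in each. The flanks gave 43.8% for 3T3 (33.3 to 54.7), below the locus, and 71.2% for P19 (56.9 to 82.9), above it, and in each line the intervals of locus and flanks overlap. Where the lines shared a site, the centres nearly coincided: the offset had a median of 53.0 bp, a range of 0.5 to 242 bp, and was at most 200 bp in 18 of 19 regions, against a median of 66.0 bp over 19079 overlapping pairs of the genome.

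Most CTCF peaks without a counterpart lay more than 1000 bp from any CTCF peak of the other line. The median distance was 3.81 kb for 3T3 and 10.4 kb for P19. Such distances over the whole lists are not given here, so whether these are ordinary is not known. Of the 16 3T3 CTCF peaks without P19 CTCF, 2 had a P19 CTCF peak within 1000 bp and 5 were more than 10 kb from any. Among the 21 P19 peaks without 3T3 CTCF, 2 had a 3T3 peak within 1000 bp and 11 were more than 10 kb away. Unshared peaks were also weaker than shared ones. For P19 the median percentile was 62.9 among the 19 shared peaks (48.0 to 84.6, interval from order statistics) and 19.4 among the 21 others (7.31 to 44.1), while over the whole list these medians were 63.0 and 33.5. In 3T3 the medians were 53.4 (32.8 to 77.7) and 31.9 (11.9 to 55.9), with overlapping intervals, against 69.0 and 37.9 over the list.

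CTCF scores at the locus were not high for either list. 3T3 CTCF peaks had scores from 50.9 to 1577 with a median of 87.4, at a median percentile of 40.0 (32.7 to 56.1), and 14 of 35 were above the list median of 104. P19 CTCF peaks ran from 50.7 to 309 with a median of 111, at a median percentile of 46.5 (23.5 to 61.9), and 19 of 40 were above the list median of 117. Each list had 2 locus peaks at percentile 90 or above. Widths were close to those of the lists, with a median of 336 bp against 342 bp in 3T3 and of 618 bp against 636 bp in P19.

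The highest scoring sites differed between the lines. In 3T3 the leading CTCF peak was at 37965768 to 37966246 (886 kb from the start) with a score of 1577, percentile 95.8, and at that region the P19 CTCF peak scored 55.7, percentile 6.71. The next 3T3 peaks were at 37911132 to 37911431 (score 652, percentile 90.4), at 37968340 to 37968715 (score 523, percentile 88.3), which had no P19 peak, and at 37920994 to 37921774 (score 383, percentile 84.7). All 4 lay in the last 100 kb of the locus, and the fifth, at 37249396 to 37249782 (score 304, percentile 81.1), lay 170 kb from the start.

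P19 had its leading CTCF peaks spread along the interval. The strongest, 37920900 to 37921774 (score 309, percentile 91.8), was the same region as the fourth 3T3 peak and thus high in both lines. Next came 37460149 to 37460894 (score 294, percentile 90.6), where 3T3 CTCF scored 64.1 at percentile 19.9, and 37105192 to 37105845 (score 277, percentile 88.8), where it scored 51.6 at percentile 2.87. The remaining 2 were 37644226 to 37645002 (score 256, percentile 86.3), with a 3T3 score of 135 at percentile 60.7, and 37112676 to 37113330, the region with the P19 CTCFL peak. All 5 were sites shared with 3T3.

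Across the 19 shared regions the within-list ranks of the lines ran in no common order. Spearman's rho of the percentiles was −0.33 and Pearson's r −0.44 (n = 19 regions, given as a description), and −0.31 and −0.42 without the 2 regions farthest from the 3T3 median. Over the 19079 overlapping pairs of the whole lists rho was 0.26. All points come from the same 2 libraries, and regions are not independent replicates. The P19 percentile was the higher in 12 of 19 regions, beside 45.5% of the pairs of the whole lists. In 2 regions the lines were more than 80 points apart, at 37105192 to 37105905 (P19 higher by 85.9) and at 37965701 to 37966314 (P19 minus 3T3 −89.1), while 1.86% of all pairs were.

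**Figure D4:**
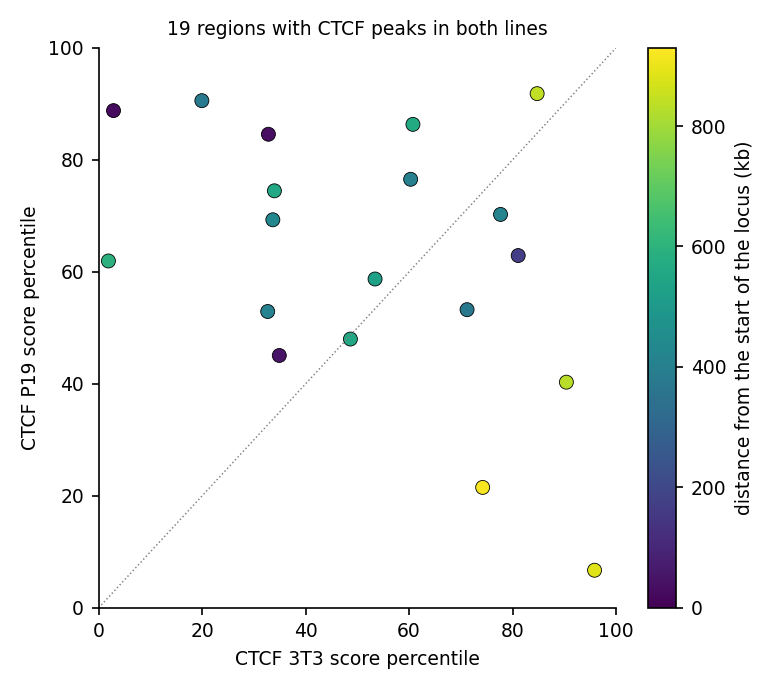
Score percentile of the P19 CTCF peak (vertical) against that of the 3T3 CTCF peak (horizontal), each within its own list, for the 19 regions of the locus with CTCF in both lines; colour gives the distance from the start of the locus in kb and the dotted line marks equal percentiles. Of the 4 regions at the far end of the locus (yellow to light green), 3 lie low and to the right, whereas 11 of the 15 others lie above the line.

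The sign of the difference between the lines depended on where the locus was divided. With the division at its middle it was the same on both sides: P19 was the higher in 7 of 10 shared regions before it, with a median difference of 18.2 points, and in 5 of 9 after it, with a median of 5.30 points. In the first 8 of 10 windows of equal length (up to 744 kb) P19 was the higher in 11 of 15 shared regions, with a median difference of 20.2 points. In the last 2 windows 3T3 was the higher in 3 of 4, with a median of −51.4 points. Taken over all peaks, shared or not, the 25 3T3 peaks up to 744 kb had a median percentile of 33.7 and the 10 beyond it 67.6. The 30 P19 peaks up to 744 kb had a median of 56.6 and the 10 beyond it 22.5. The split at 744 kb was chosen after the values were seen and 4 shared regions lie beyond it, so these are descriptions.

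Along the locus, CTCF peaks lay in runs with wider gaps between them. Runs and widest gaps are not given for the genome, so they are not shown to be particular to the locus. Neighbouring CTCF peaks of 3T3 had centres 0.405 to 151 kb apart, with a median of 11.2 kb (6.14 to 21.0), against 14.1 kb over the genome. P19 neighbours were 0.751 to 127 kb apart, with a median of 13.2 kb (6.49 to 21.4), against 28.4 kb. The 3T3 interval includes the genome median, and the P19 interval does not. Shorter gaps follow in part from the higher density of peaks given above, and spacing in the flanks is not given here. In the P19 list 43.6% of the 39 gaps were under 10 kb, and 26.0% of all gaps, whereas in 3T3 it was 47.1% of 34 and 42.2%. The widest 3T3 gap lay between the peaks at 37303529 to 37303994 and at 37454056 to 37454644. P19 had its widest between 37249426 to 37250059 and 37376859 to 37377541, a gap in which 3T3 had 1 CTCF peak, at 37303529 to 37303994 (percentile 55.9).

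With regions no more than 20 kb apart joined, the locus fell into 14 runs. The run with the most shared regions was 37453931 to 37515177 (61.2 kb), with 9 regions, of which 6 had CTCF in both lines, 2 in 3T3 alone and 1 in P19 alone. The P19 peaks there were at percentiles 52.9 to 90.6. A run at 37632863 to 37673528 (40.7 kb) held 6 regions, 4 of them shared, and another at 37874406 to 37932098 (57.7 kb) held 10 regions, of which 2 were shared, 3 had 3T3 CTCF alone, 4 had P19 CTCF alone and 1 was the 3T3 CTCFL peak. The first run, 37090160 to 37128310 (38.2 kb), had 7 regions with 3 shared, including the P19 CTCFL site. Between them, 37154210 to 37180647 held 4 regions and none shared, with 3T3 peaks at percentiles 23.0 and 19.2 and P19 peaks at 83.9 and 7.31. The pairs at 37376859 to 37378308 and at 37560145 to 37574115, and the region at 37730076 to 37730666, had P19 peaks alone. The 3 regions at 37965701 to 37968715 held all 3 of their 3T3 peaks within 3.02 kb, and P19 had a peak at 1 of them.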

How the data were processed

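Peaks of 4 chromatin immunoprecipitation samples, 1 library and 1 deposited list each, were used. Per the submitters' processing notes, MACS 1.4, Bowtie, SAMtools and FastQC were used, and mm9 and hg19 are the builds listed, without their roles. How reads were aligned and filtered, which control was used and whether runs were pooled is not given in the sources used here. Read depth is unknown. The deposited score per peak is the authors' (lowest value 50), used only within a list. Because the cells are mouse, positions were read as mm9.

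Starts were converted to positions counted from 1. Overlap means at least 1 bp. For densities, each nuclear chromosome was taken to end at its last peak. Shares have exact (Clopper-Pearson) 95% intervals and medians have order-statistic intervals. No test was possible with 1 library per group. Named sites were the 5 highest scoring peaks of each list, regions with peaks of at least 3 lists, CTCFL peaks without CTCF and the ends of the widest gaps, and runs were added. Members and comparisons were chosen with earlier results of these data known. Alternatives were wider ends, a score limit, equal list lengths, joined peaks and other overlap criteria. Scripts ran under Python 3.11.15 with SciPy 1.17.1, pandas 2.3.3, matplotlib 3.10.9 and numpy 2.4.6. They were tested on simulated peaks, and 12 of 12 overlap counts equalled those of bedtools 2.31.1.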

Additional observations from a re-analysis of the deposited data

Results flagged for a closer look

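Between the 2 parts of the locus before and after its middle, median CTCF score percentiles differed in opposite directions in the 2 lines. No test of that difference was possible with 1 library each, and it was not tested. With the locus split at its middle (465 kb), the median score percentile of 3T3 CTCF peaks was 33.2 over the 18 peaks before it (19.2 to 56.1) and 49.1 over the 17 after it (34.0 to 74.2), a difference of 15.8 points. For P19 CTCF it was 69.3 over 17 peaks (45.1 to 82.6) and 29.7 over 23 (10.8 to 54.4), a difference of −39.6 points. The intervals of the 2 parts overlap in each line. The 3T3 medians did not rise steadily. In windows 6 to 8 of 10 they were 41.3, 31.3 and 11.2, and in windows 9 and 10 they were 60.9 and 74.2. P19 medians in the same windows were 51.2, 48.0 and 10.8, then 23.5 and 21.5. Window 8 held 1 peak of each list. The split was chosen after the values were seen.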

How the results depend on the processing

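No paired analysis was possible because there was a single library for every factor and line, and for that reason no replicate could be left out. Under the alternatives chosen at the outset, 42 values kept within the exact interval around the one reported (counts within 1.5 times) and 22 did not. The 3T3 share of CTCF peaks with CTCFL was 0 under each alternative except the wider interval (2.38%). Widening the interval by 100 kb on each side gave 3 CTCFL peaks in each line. A score of at least 100 in every list left 17 3T3 and 22 P19 CTCF peaks and 0 CTCFL peaks in each line. It gave 0% of P19 CTCF peaks with CTCFL, a 3T3 median percentile of 26.2 and spacing of 23.6 kb. There were then 31 regions, 8 with CTCF of both lines. By construction this limit removes weak peaks. It kept 52.9% of all 3T3 and 59.0% of all P19 CTCF peaks, and 35.9% of all 3T3 and 28.7% of all P19 CTCFL peaks. Lists cut to 5866 peaks left 3 3T3 and 7 P19 CTCF peaks and 0 3T3 CTCFL peaks. This cut kept 12.8% of all 3T3 and 18.2% of all P19 CTCF peaks, beside 8.57% and 17.5% of those in the locus. It shortened the P19 CTCF list and left the P19 CTCFL list whole, and 14.3% of P19 CTCF peaks then had CTCFL (1 of 7). Recurrence was 0% in either direction. Neither share is given here for the whole of the cut lists. The 3T3 median percentile was 25.2, and spacing was 28.6 kb in 3T3 and 122 kb in P19. There were 10 regions, 0 with CTCF of both lines. The score difference between the parts after and before the middle kept its sign in each line under the 4 alternatives added after seeing the data. It ran from 15.8 to 26.5 points in 3T3 and from −40.1 to −11.1 points in P19.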

Other observations

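Close pairs of CTCF peaks at the locus were uneven in 1 direction. In 5 places neighbouring peaks of a list had centres under 1000 bp apart, and in 5 of 5 the peak nearer the start of the locus had the higher score. In P19 these were 37105192 to 37105845 (percentile 88.8) with 37106105 to 37106701 (38.6), 37179290 to 37180061 (83.9) with 37180205 to 37180647 (7.31), and 37376859 to 37377541 (69.5) with 37377871 to 37378308 (19.4). The 3T3 pairs were 37091538 to 37091873 (49.4) with 37091998 to 37092223 (11.9), and 37965768 to 37966246 (95.8) with 37966553 to 37966894 (49.1). No place held such a pair in both lines. Over the whole lists the first peak was the higher in 51.0% of 4150 pairs in 3T3 and 51.7% of 509 pairs in P19. The pattern was noticed in these data, rests on 5 pairs and was not tested, and whether a close pair is 1 enriched region called as 2 peaks was not examined.

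The one 3T3 run of CTCF peaks without CTCFL longer than that over the locus held 54 peaks, at chromosome 11 110219079 to 113479161. It spans 3260 kb, against 1168 kb for the run at the locus.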
